A study of Homo sapiens with 8 samples.

Results

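This section describes 48 genes of innate immunity that phagocytes use to sense and kill microbes: Fc receptors with their signalling adaptors, Toll-like receptors, C-type lectin receptors, chemoattractant receptors, other myeloid surface receptors, subunits of the phagocyte oxidase and NOD-like receptors. A gene was measured where at least 1 probe set of the array listed its symbol and no other, and where several did, the brightest on average across the 8 arrays was used. This gave 47 of the 48 genes, out of 19775 genes in all, and LILRB4 was not analysed here. RNA came from K562, an established line from a human chronic myeloid leukaemia with erythroid features, and all cells stably carried p42-C/EBPa-ER, the full-length form of the granulocyte transcription factor C/EBPα joined to the oestrogen receptor. One group of 4 samples received 1 µM beta-estradiol, which moves the fusion protein into the nucleus, and the other group of 4 received the ethanol vehicle, both for 6 h in medium free of phenol red, with 10% serum stripped by charcoal. Estradiol was not given to cells without the fusion, so effects of estradiol alone and of the fusion cannot be told apart, and the labels name no promoter or clone for the fusion.

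Phagocytes recognise antibody-coated particles through Fc receptors, which signal through ITAM motifs (paired tyrosines in their own tail or in an adaptor such as FCER1G or TYROBP) and the kinase SYK. Toll-like receptors bind microbial lipids, proteins and nucleic acids and most of them signal through the adaptor MYD88, while NOD-like receptors do this in the cytosol. The oxidase is a membrane pair, CYBB and CYBA, that cytosolic subunits including NCF1 and NCF4 switch on to make superoxide. Many of these genes are activated late in granulocyte and monocyte development, and C/EBPα and PU.1 are known regulators of that programme.

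Among the 47 genes the data showed 2 rises, FCGR2A and FCER1G, and 4 falls, C3AR1, FPR2, TYROBP and MYD88 (limma, Benjamini-Hochberg adjusted p below 0.05 over all genes). FCGR2A, an activating Fc receptor, was the single one to change at least 2-fold, which 0.93% of all genes did. The other 41 genes did not pass the test, among them every C-type lectin receptor, every Toll-like receptor, all 4 oxidase subunits and all 3 NOD-like receptors measured. Rises made up 8.29% of all genes and falls 9.60%, and 17.9% of all genes were called in either direction, against 12.8% of these 47. The groups of 4 arrays did not overlap in 7 of the 47, where 24.1% of all genes showed this. The median log2 difference was −0.04 over the 47 genes and −0.03 over all genes. The 6 genes called were also the only ones of the 47 with an unadjusted p below 0.05, and a fit with a variance trend called 6 as well.

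Values are log2 levels as the authors deposited them after RMA, so 1 unit is a 2-fold change in signal. Most of the 47 genes gave a dim signal: 37 had a mean below 5.94, the median of all genes, and 21 below 4.41, the lower quartile. Of all genes below the median 3.72% were called, and of those at or above it 32.1%, so the counts are best read within each level. Below the median 2 of 37 members were called (5.41%), and at or above it 4 of 10 (40.0%). No measure of background was used here, so it is not known which dim genes were expressed. Where they were, their changes can be understated on this scale. As a guide, 13 markers of T cells, B cells and fibroblasts ran from 3.66 to 7.96 on the same arrays, and of the 47 genes only CYBA, MYD88 and SYK had a mean above that range. Of 8 measured erythroid markers 7 lay at or above the median. The mean of the 8 was 10.58 to 10.64 on the vehicle arrays and 10.32 to 10.40 with estradiol. Of the 8 markers 3 fell (GATA1, KLF1 and HBE1) and the other 5 were not called. Their differences were negative in 6 and positive in 2 of the 8 (TAL1 0.085 and TFRC 0.078). The 6 measured markers of monocytes and macrophages were all below the median, with a mean of 4.12 to 4.20 with vehicle and 4.04 to 4.17 with estradiol, and 0 were called (0 at an unadjusted p below 0.05). The 7 neutrophil markers averaged 4.27 to 4.40 with vehicle and 4.32 to 4.42 with estradiol, all below the median. The 1 called was ELANE, which fell (−0.23, limma adjusted p = 0.0407), and the fit with a variance trend called 0 of the 7. Differences were positive in 4 of the 7, the largest in CEACAM8 (0.22, limma adjusted p = 0.0711). The part of these markers in the results was not tested. In RNA from a whole culture, fewer cells that express a gene and less RNA of it per cell cannot be told apart.

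**Figure D1:**
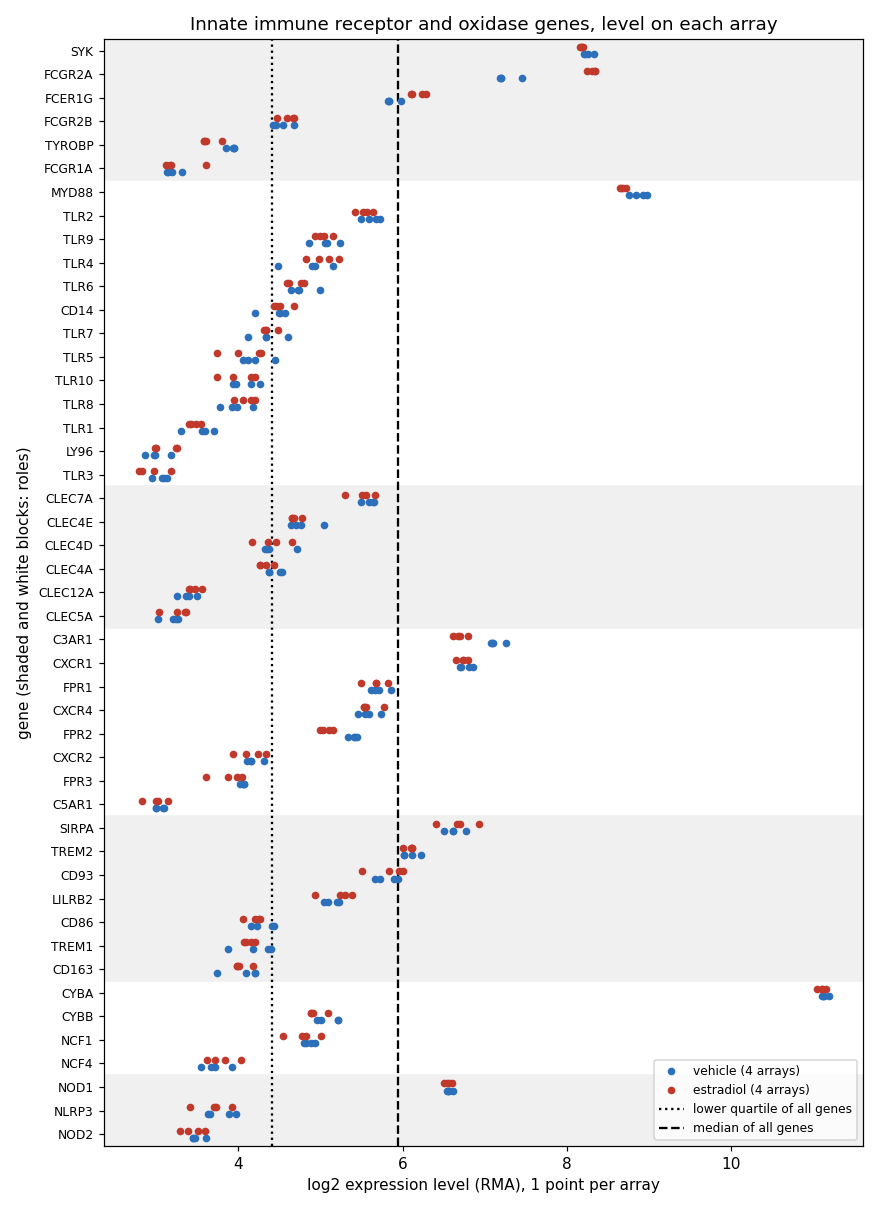
Log2 expression level (RMA, horizontal axis) of the 47 measured genes on each of the 4 vehicle arrays (blue) and 4 estradiol arrays (red), grouped by role in shaded and white blocks. The dotted and dashed lines mark the lower quartile (4.41) and the median (5.94) of all genes, and 37 of the 47 genes have a mean left of the dashed line.

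The Fc receptor group held the largest change. FCGR2A, which carries its ITAM in its own tail, stood at 8.34, 8.34, 8.25 and 8.31 on the estradiol arrays and at 7.46, 7.20, 7.19 and 7.20 on the vehicle arrays. The groups did not overlap, and vehicle replicate 1 was the highest of its group. The rise was 2.07-fold (log2 difference 1.05 ± 0.07 SE, n = 4 and 4, limma adjusted p = 8.87e-06), and 1.11 without vehicle replicate 1. The second FCGR2A probe set was dim and gave 0.10 ± 0.08 (adjusted p = 0.520 over all probe sets with 1 symbol, 13.1% of which were called), so that the mean of both changed by 0.57.

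The FCGR2 genes are closely related in sequence, and the signal cannot be assigned to 1 of them with certainty. Both bright probe sets listed for FCGR2C also rose, by 0.83 ± 0.07 and 0.81 ± 0.07 (adjusted p = 5.38e-05 and 7.48e-05), from 7.96 and 7.71 with vehicle. The remaining, dimmer probe set of FCGR2C differed by −0.03. FCGR2B, the inhibitory member with an ITIM, was dim, with vehicle at 4.53 ± 0.12 (SD, n = 4) and with estradiol at 4.60 ± 0.10, and its difference of 0.08 had a 95% interval from −0.08 to 0.24. A probe set that lists FCGR2A and FCGR2C together differed by 0.10 ± 0.05 without a call.

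FCGR1A, the high-affinity receptor for IgG, had 1 probe set of its own, which was dim and not called (0.07 ± 0.11). Its estradiol replicate 1 stood at 3.61 against 3.12 to 3.18 in the other estradiol arrays. A probe set that lists FCGR1A together with the related loci FCGR1BP and FCGR1CP stood at 5.03, 5.08, 5.06 and 4.97 with estradiol and at 4.45, 4.72, 4.58 and 4.56 with vehicle, without overlap. That shared signal rose by 0.46 ± 0.06 (adjusted p = 0.00145 over all 54675 probe sets, of which 10.4% were called), and it cannot be given to FCGR1A alone. It was chosen for mention after its values had been seen.

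The adaptors that lend an ITAM to receptors without one moved in opposite directions. FCER1G, the common γ chain that FCGR1A and the IgE receptor need, had levels of 6.11, 6.24, 6.10 and 6.29 with estradiol and 5.98, 5.84, 5.84 and 5.82 with vehicle. The groups did not overlap, and vehicle replicate 1 again lay highest in its group. FCER1G rose 1.24-fold (0.31 ± 0.06 SE, adjusted p = 0.00634), and its second probe set pointed the same way at 0.27 without a call. TYROBP, also named DAP12, which serves TREM1, TREM2 and CLEC5A, stood at 3.80, 3.61, 3.58 and 3.58 with estradiol and at 3.95, 3.95, 3.94 and 3.85 with vehicle. TYROBP fell 1.22-fold (−0.28 ± 0.06, adjusted p = 0.00924) within a range below the lower quartile of all genes, on its single probe set.

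SYK, the kinase that docks on phosphorylated ITAMs, stood at 8.19, 8.17, 8.16 and 8.20 with estradiol and at 8.33, 8.21, 8.26 and 8.22 with vehicle. The groups just failed to overlap, and the difference of −0.07 ± 0.04 was not called (adjusted p = 0.321, 95% interval −0.17 to 0.02). All 4 SYK probe sets gave negative differences, from −0.37 to −0.07. The dimmest of them was called lower (adjusted p = 0.0449), and so was the mean of all 4 (−0.16, adjusted p = 0.0335).

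**Figure D2:**
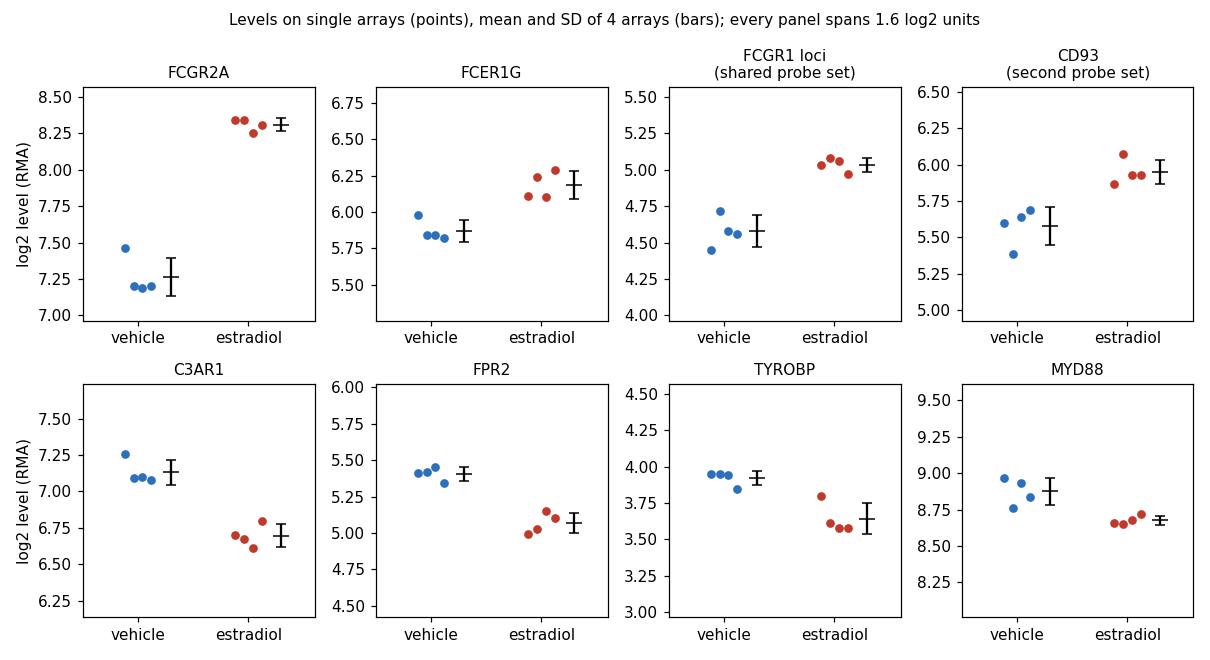
Log2 level (RMA, vertical axis) on each vehicle (blue) and estradiol (red) array for the 6 called genes, the probe set shared by FCGR1A and 2 related loci, and the second probe set of CD93, with the mean and SD of 4 arrays as black bars. The panels were picked from probe sets that had been called, and none shows overlap between the groups. The probe set that stands for CD93, which overlapped and was not called, is not shown. The distance is widest for FCGR2A, at 8.25 to 8.34 against 7.19 to 7.46.

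Promoters of FPR2 and MYD88, which both fell, are not shown. The promoters below were picked from the other genes called and from genes not called that share a feature with one of them. They are the 120 bases before the annotated start of each gene, 5′ to 3′ on the gene's strand, from RefSeq on GRCh38.p14, and capitals mark matches to the letters of a PU.1 motif, GAGGAAG or its reverse complement CTTCCTC. FCGR1A, FCGR2A and NCF1 hold CTTCCTC with its first base 47, 46 and 46 bases before the start, TYROBP holds it 11 bases before the start, and FCER1G and C3AR1 hold no match in 250 bases.

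FCGR1A, chr1:149782574-149782693, + strand: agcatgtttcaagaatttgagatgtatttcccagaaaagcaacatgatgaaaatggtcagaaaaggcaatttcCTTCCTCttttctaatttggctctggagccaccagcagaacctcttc
FCGR2A, chr1:161505337-161505456, + strand: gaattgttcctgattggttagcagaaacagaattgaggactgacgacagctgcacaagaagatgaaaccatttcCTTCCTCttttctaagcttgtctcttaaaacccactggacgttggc
NCF1, chr7:74773891-74774010, + strand: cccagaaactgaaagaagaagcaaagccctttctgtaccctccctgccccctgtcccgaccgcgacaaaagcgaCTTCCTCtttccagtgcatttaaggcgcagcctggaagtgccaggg
TYROBP, chr19:35908296-35908415, − strand: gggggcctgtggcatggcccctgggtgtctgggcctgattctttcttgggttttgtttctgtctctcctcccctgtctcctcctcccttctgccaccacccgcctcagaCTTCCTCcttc
FCER1G, chr1:161215175-161215294, + strand: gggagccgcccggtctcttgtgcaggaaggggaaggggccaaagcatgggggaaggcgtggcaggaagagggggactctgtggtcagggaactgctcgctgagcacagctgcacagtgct
C3AR1, chr12:8066360-8066479, − strand: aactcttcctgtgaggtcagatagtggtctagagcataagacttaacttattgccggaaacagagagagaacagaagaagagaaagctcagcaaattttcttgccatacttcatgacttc

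Promoters of 37 of the 48 genes were in the table used. The PU.1 letters stood on either strand within 250 bases before the start in 16 of these 37 genes (43.2%), against 11.2% of all 35116 promoters searched. They were present in 1 of 2 genes that rose (FCGR2A), 2 of 4 that fell (TYROBP and MYD88) and 13 of 30 that were not called. A C/EBP motif, TTGCNNAA on either strand, stood in 7 of the 37 genes (18.9%), against 9.05% of all promoters. It was found in SYK, TLR3, TLR8, CLEC4E, TREM1, TREM2 and CD163, none of which was called on the probe set that stands for it. SYK held both motifs, with the C/EBP letters 43 bases and PU.1 letters 82 and 32 bases before the start, without overlap. For both motifs a gene counted where any promoter listed for it held the letters. The shares of all promoters count each promoter on its own, so genes are set against promoters. A match is a run of letters and not a measured binding site.

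The Toll-like receptors themselves did not pass the test. The 10 receptors had levels between 3.00 (TLR3) and 5.58 (TLR2), all below the median of all genes, and differences between −0.14 ± 0.13 for TLR5, the flagellin receptor, and 0.16 ± 0.14 for TLR4, the receptor for bacterial lipopolysaccharide. Their 95% intervals ran from −0.43 at the lowest bound to 0.47 at the highest. TLR2, which binds bacterial lipoproteins, differed by −0.08 ± 0.07, and its partners TLR1 and TLR6 by −0.07 ± 0.08 and −0.08 ± 0.08. The receptors of nucleic acids in endosomes, TLR3, TLR7, TLR8 and TLR9, differed by −0.12, 0.02, 0.12 and −0.03. The lipopolysaccharide co-receptors CD14 and LY96 were dim as well and differed by 0.08 ± 0.09 and 0.11 ± 0.09.

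MYD88, the adaptor shared by most of these receptors, was bright and fell slightly. It stood at 8.66, 8.65, 8.68 and 8.72 with estradiol and at 8.97, 8.76, 8.93 and 8.84 with vehicle, without overlap. The fall was 1.15-fold (−0.20 ± 0.05, adjusted p = 0.0318). With any array but vehicle replicate 2 left out the call was lost (adjusted p from 0.0572 to 0.0908), as it was with the arrays centred on their medians (adjusted p = 0.131).

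In the list of other genes of Toll-like receptor signalling 3 of 23 measured genes rose and 1 fell, with a median difference of 0.02. That is 17.4% called, against 17.9% of all genes. Of the 23 genes 16 lay at or above the median level, where 32.1% of all genes were called. PELI1, a ubiquitin ligase of the IRAK pathway, rose 2.90-fold, from 6.98 ± 0.12 (SD, n = 4) to 8.52 ± 0.07 (difference 1.54 ± 0.07 SE, adjusted p = 9.33e-07). That rise came from 1 of its 3 probe sets, and the mean of the 3 changed by 0.58. The kinase MAP3K7, also named TAK1, rose by 0.30 ± 0.05. IKBKE, a kinase of interferon induction, rose by 0.26 ± 0.08 and IRAK1, a kinase recruited by MYD88, fell by 0.21 on the log2 scale. The call of IKBKE, whose groups overlapped, was lost without any array but estradiol replicate 1 or vehicle replicate 2, at adjusted p up to 0.118. Leaving out vehicle replicate 3, or estradiol replicate 3 or 4, ended that of IRAK1 (up to 0.0700), as did another scaling, median centring (0.117).

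C-type lectin receptors recognise fungal and other sugars and glycolipids. The 6 measured, CLEC7A (Dectin-1), CLEC4A, CLEC4D, CLEC4E (Mincle), CLEC5A and CLEC12A, had levels of 3.22 to 5.55, all below the median, and differences of −0.11 to 0.08. None was called (limma, 0 at an unadjusted p below 0.05). CLEC7A, at 5.59 ± 0.07 (SD, n = 4) with vehicle and 5.50 ± 0.15 with estradiol, differed by −0.09 with a 95% interval from −0.26 to 0.08. CLEC12A changed the sign of its difference from 0.08 to −0.02 with the mean of its probe sets.

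Chemoattractant receptors, which steer phagocytes toward complement fragments, formyl peptides and chemokines, gave 2 falls among 8 genes and no rise. That is 25% called, against 17.9% of all genes, of which 9.60% fell and 8.29% rose. C3AR1, the receptor for complement C3a, stood at 6.70, 6.67, 6.61 and 6.80 with estradiol and at 7.26, 7.09, 7.10 and 7.08 with vehicle. The groups did not overlap, and vehicle replicate 1 was the highest. C3AR1 fell 1.36-fold (−0.44 ± 0.06 SE, adjusted p = 8.28e-04), or by 0.40 without vehicle replicate 1. FPR2, a receptor for formyl peptides and for lipid and protein mediators including annexin A1, stood at 4.99, 5.03, 5.15 and 5.10 with estradiol and at 5.41, 5.42, 5.45 and 5.34 with vehicle. FPR2 fell 1.26-fold (−0.34 ± 0.05, adjusted p = 0.00144), with levels below the median of all genes, and the mean of both its probe sets changed by −0.22 (adjusted p = 0.0369).

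The other 6 chemoattractant receptors were not called. FPR1 and FPR3, which flank FPR2 on chromosome 19, differed by −0.04 ± 0.08 and −0.18 ± 0.09 (adjusted p = 0.790 and 0.218). C5AR1, the receptor for complement C5a, was dim at 3.00 and 3.05 and differed by −0.05 ± 0.07. CXCR1, a receptor for interleukin 8, stood at 6.65, 6.74, 6.80 and 6.74 with estradiol and at 6.70, 6.71, 6.86 and 6.81 with vehicle, with overlapping groups and a difference of −0.04 ± 0.05. CXCR2 and CXCR4, the second interleukin 8 receptor and the receptor for CXCL12, differed by −0.02 ± 0.09 and 0.01 ± 0.08. Of 23 measured genes in the list of chemoattractant receptor signalling 1 was called (4.35%, against 17.9% of all genes). This was ARRB1, an arrestin that desensitises these receptors, which fell 1.44-fold (−0.53 ± 0.07, limma adjusted p = 9.25e-04) and was lower on all 7 of its probe sets. At or above the median level, where 32.1% of all genes were called, lay 13 of the 23 genes.

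**Figure D3:**
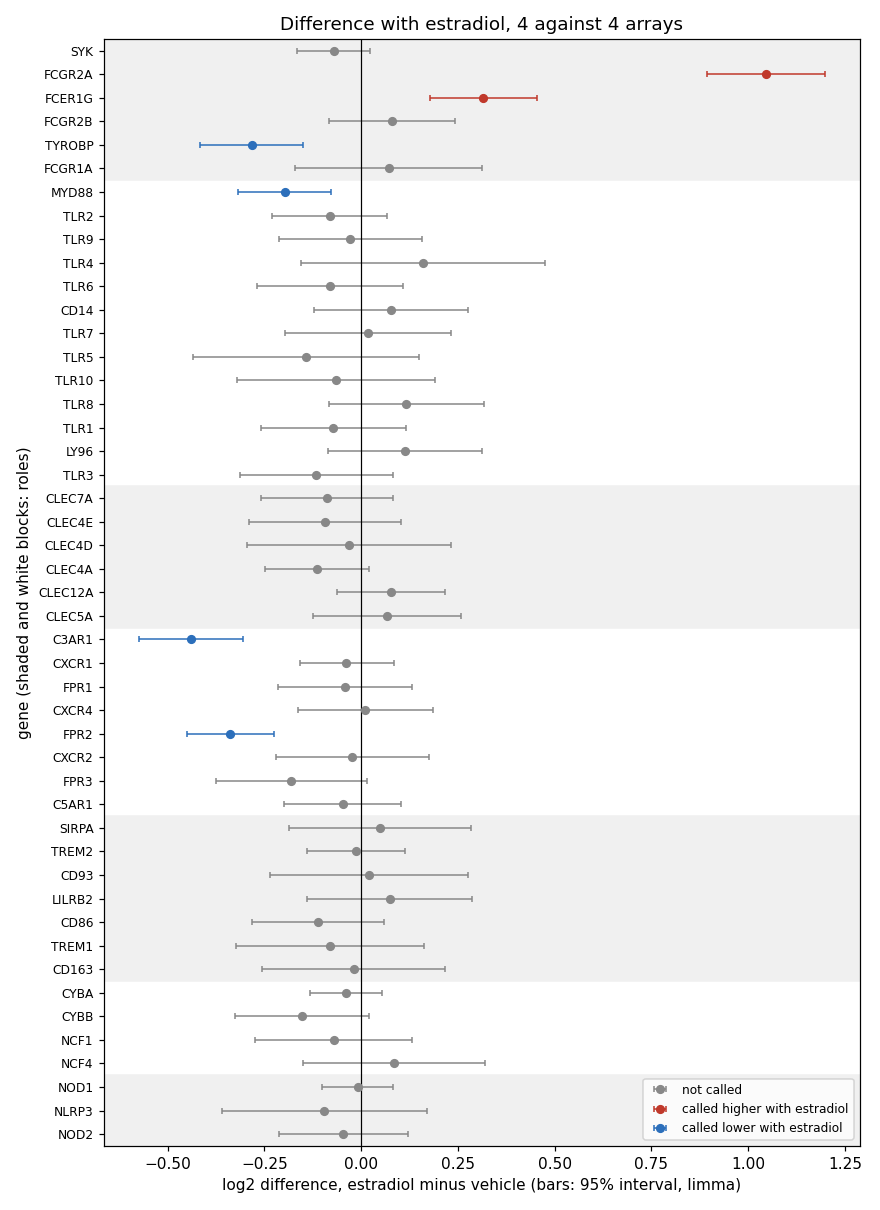
Log2 difference, estradiol minus vehicle (horizontal axis), for the 47 measured genes with the 95% interval from limma, in the order and blocks of the plot of levels. FCGR2A and FCER1G (red) lie right of 0 and C3AR1, FPR2, TYROBP and MYD88 (blue) left of it, while the 41 genes in grey lie between −0.18 and 0.16.

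None of the 7 other myeloid surface receptors measured was called on the probe set that stands for it (limma, 0 at an unadjusted p below 0.05). SIRPA, which binds CD47 and restrains phagocytosis, stood at 6.41, 6.70, 6.93 and 6.66 with estradiol and at 6.61, 6.62, 6.51 and 6.77 with vehicle, and these groups overlapped (0.05 ± 0.10). TREM2, a lipid-sensing receptor of macrophages, stood at 6.12, 6.01, 6.11 and 6.10 and at 6.12, 6.02, 6.02 and 6.22, a difference of −0.01 with a 95% interval from −0.14 to 0.11. TREM1, LILRB2, CD86 and CD163 were below the median with differences of −0.08, 0.07, −0.11 and −0.02.

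CD93, a lectin-like receptor of progenitors, monocytes and endothelium, gave different answers on its 2 probe sets. The one that stands for the gene overlapped between groups and differed by 0.02 ± 0.11. The other stood at 5.87, 6.07, 5.93 and 5.93 with estradiol and at 5.60, 5.39, 5.64 and 5.69 with vehicle and was called higher (0.37 ± 0.08, adjusted p = 0.00924 over all probe sets with 1 symbol). The mean of both was not called (0.20, adjusted p = 0.163). Of 45 further probe sets of the 28 genes with several, this one and that of SYK were the 2 called. Of all probe sets with 1 symbol 13.1% were called.

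The oxidase subunits were not called. CYBA, the p22phox subunit that also pairs with other oxidases, was bright at 11.10, 11.05, 11.15 and 11.10 with estradiol and 11.19, 11.13, 11.11 and 11.12 with vehicle. Its groups overlapped, and the difference of −0.04 had a 95% interval from −0.13 to 0.06. CYBB, the catalytic gp91phox subunit specific to phagocytes, was dim at 4.94 ± 0.10 (SD, n = 4) and 5.10 ± 0.13, a difference of −0.15 ± 0.08 (adjusted p = 0.234), and its 4 probe sets ran from −0.15 to 0.06. The cytosolic subunits NCF1 (p47phox) and NCF4 (p40phox) differed by −0.07 ± 0.09 and 0.09 ± 0.10. NCF1 has near-identical pseudogenes, and a probe set that lists it with both of them differed by −0.18 ± 0.13 (adjusted p = 0.509).

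In the list of oxidase partners 2 of 16 measured genes rose and 2 fell, 25% of the list against 17.9% of all genes. Of these 16 genes 11 lay at or above the median level, where 32.1% of all genes were called, while 3 of the 4 subunits lay below it, where 3.72% were, and the difference between partners and subunits was not tested. HVCN1, the voltage-gated proton channel that balances charge while the oxidase works, went from 6.88 ± 0.19 (SD, n = 4) to 9.30 ± 0.08 and rose 5.35-fold (2.42 ± 0.09 SE, adjusted p = 4.29e-07). CYBC1, a chaperone needed for CYBB and CYBA to mature, rose by 0.21 ± 0.05 (adjusted p = 0.0179), a call that ended with vehicle replicate 3 or 4, or estradiol replicate 2, left out (adjusted p up to 0.0578). RAC2, the small GTPase that activates the oxidase in neutrophils, fell 1.43-fold (−0.52 ± 0.05, adjusted p = 1.47e-04). DUOX1, an oxidase of epithelia, fell by 0.33 in a dim range, and the mean of its 3 probe sets fell by 0.16.

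NOD-like receptors were not called either. NOD1, a sensor of bacterial cell wall peptides, stood at 6.60, 6.51, 6.54 and 6.57 with estradiol and at 6.55, 6.54, 6.56 and 6.61 with vehicle, a difference of −0.01 with a 95% interval from −0.10 to 0.08. NOD2 and NLRP3, the scaffold of an inflammasome, were below the lower quartile and differed by −0.05 ± 0.07 and −0.10 ± 0.12. Of 25 measured genes in the list of NLR and inflammasome genes 4 rose and 1 fell, 20% called against 17.9% of all genes. At or above the median level, where 32.1% of all genes were called, lay 11 of the 25. PYCARD, the adaptor ASC that joins NLRP3 to caspase 1, rose 2.08-fold, from 8.72 ± 0.10 (SD, n = 4) to 9.78 ± 0.06 (1.06 ± 0.06 SE, adjusted p = 3.76e-06). CASP8 rose by 0.54 ± 0.08 and NAIP by 0.35 ± 0.07, while TXNIP, a thioredoxin-binding protein, fell 1.5-fold. With the mean of all probe sets CASP8 rose by 0.27 and NAIP lost its call (0.11, adjusted p = 0.409).

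In the list of Fc receptor and ITAM signalling 3 of 28 measured genes rose and 4 fell (25% called). FCGR2C was among the rises here and over all 7 lists, and its signal may be shared with FCGR2A. In the list of inhibitory receptors and their phosphatases 2 of 18 rose and 3 fell (27.8%), where 17.9% of all genes were called. At or above the median level, where 32.1% of all genes were called, lay 17 of the 28 and 11 of the 18. GAB2, a docking adaptor downstream of Fc receptors, rose 2.33-fold (1.22 ± 0.06 SE, adjusted p = 1.60e-06), and the ubiquitin ligase CBL, which limits SYK signalling, rose by 0.44 ± 0.06. MALT1, a paracaspase that acts after C-type lectin and antigen receptors, fell 1.69-fold on all 3 of its probe sets. PECAM1, an adhesion receptor with ITIMs, rose by 0.56 ± 0.07, or by 0.27 with the mean of its 5 probe sets. DOK3 and DOK2, adaptors that dampen kinase signalling, fell by 0.67 and 0.22 on the log2 scale, DOK2 without a call under median centring (adjusted p = 0.0521). INPP5D, the lipid phosphatase SHIP1, fell by 0.24, a call lost with the arrays centred on their medians (adjusted p = 0.0848) and with vehicle replicate 1 or 4, or estradiol replicate 1, 2 or 4, left out (up to 0.102). In the list of 21 other phagocyte receptors 0 were called by limma, 1 had an unadjusted p below 0.05, and the fit with a variance trend called 0. Of these 21 genes 16 lay below the median level, where 3.72% of all genes were called. Over all 7 lists 14 of 154 measured genes rose and 12 fell (16.9% called, against 17.9% of all genes), with a median difference of −0.03.

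**Figure D4:**
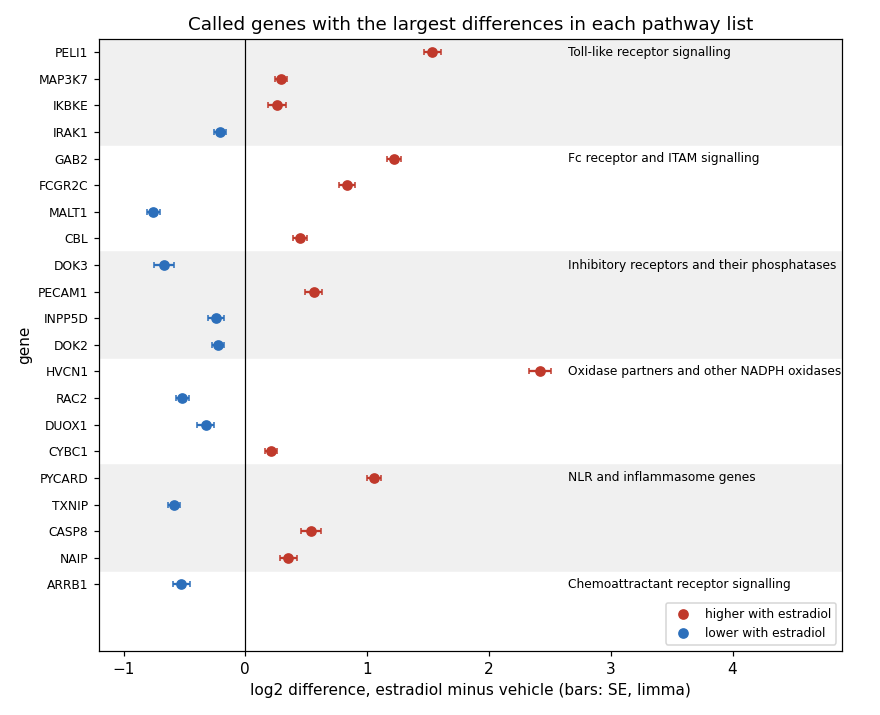
Log2 difference, estradiol minus vehicle (horizontal axis, bars are the SE from limma), for up to 4 called genes with the largest difference in each pathway list, red where higher with estradiol and blue where lower. HVCN1 (2.42), PELI1 (1.54), GAB2 (1.22) and PYCARD (1.06) lie farthest right and MALT1 (−0.75) farthest left.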

How the data were processed

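The authors deposited log2 values per probe set, and the submitters' processing notes name RMA. Its version and the chip definition are not stated in the labels. RMA brings all arrays to a common distribution, which hides a change shared by most genes. The arrays' medians ran from 4.97 to 5.08. Of 54675 probe sets, 41097 listed 1 gene symbol, 1801 several and 11777 none, in an old platform annotation checked by gene identifier (41043 matched, 0 symbols changed). The 47 measured genes had 92 probe sets.

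The titles gave group and replicate number and speak of biological replicates, with no word on separate cultures, so p-values may reflect technical spread. The test was limma 3.58.1 (R 4.3.3; lmFit and eBayes) on all 8 arrays, two-sided, with no filter or covariate, and p-values were Benjamini-Hochberg adjusted over all 19775 genes. Errors are moderated SEs or SDs over 4 arrays. The fit was tested on simulated data. With 4 arrays a group, their number limits precision.

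Every gene of the set is accounted for, with all 8 values where it was called or lay at or above the median of all genes. From each of 7 pathway lists up to 4 called genes with the largest difference were named. Genes and lists were chosen with earlier results of these data known. Alternatives covered the replicate block, 3 scalings, 2 filters on dim genes, other uses of probe sets, a variance trend, array weights, a stricter threshold and each array left out. The fit over every probe set of the table was added after seeing the data. Promoters came from a RefSeq table; protein sequences were not used here.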

Additional observations from a re-analysis of the deposited data

Results flagged for a closer look

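In a group of 4 arrays the highest or lowest value was marked where its gap to the next exceeded Dixon's 95% critical value as a share of the group's range, which chance does in about 1 in 20 groups. Of 94 groups of the 47 genes 11 were marked, and 12 of 136 with the named pathway genes included. Vehicle replicate 1 was the marked array in 3 called genes, FCGR2A (7.46 against 7.19 to 7.20), FCER1G (5.98 against 5.82 to 5.84) and C3AR1 (7.26 against 7.08 to 7.10). Without it they differed by 1.11, 0.35 and −0.40, all still called. TYROBP was marked in both groups, at 3.80 in estradiol replicate 1 (others 3.58 to 3.61) and at 3.85 in vehicle replicate 4 (others 3.94 to 3.95). Estradiol replicate 3 was marked for TLR7 (4.49 against 4.32 to 4.34), CXCR4 (5.78 against 5.53 to 5.55) and CYBB (5.09 against 4.88 to 4.91), none of them called. The others were FCGR1A in estradiol replicate 1 (3.61), CD163 in estradiol replicate 4 (4.18), CLEC4D in vehicle replicate 2 (4.71) and DOK3 in vehicle replicate 2 (7.43 against 7.71 to 7.75).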

How the results depend on the processing

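FCGR2A, FCER1G, TYROBP, FPR2 and C3AR1 kept their direction and call in each alternative that tested them, and no called gene of the set reversed. Largest adjusted p-values were 3.95e-04, 0.0378, 0.0476, 0.0369 and 0.00775. MYD88 lost its call in 12 of 20 alternatives, at adjusted p from 0.00363 to 0.131 over all of them. SYK gained a call with the mean of its probe sets. The genes called lower numbered 2 with only genes at or above the median level, which leaves FPR2 and TYROBP untested. At adjusted p below 0.01 the calls over all genes numbered 2179 (1040 higher, 1139 lower), those in the pathway lists 17, and the falls in the lists 6. The falls in the lists numbered 7 with median centring. With the replicate number as a block they numbered 6, and calls over all genes 2598 against 3538, and MYD88, IRAK1, IKBKE, INPP5D, DOK2 and DUOX1 lost their calls (adjusted p 0.0776, 0.0723, 0.0821, 0.119, 0.0541 and 0.0593). Same-numbered arrays correlated at −0.05, −0.21, 0.09 and 0.11 in their deviations from group means, so the numbers were not taken as pairs. Differently numbered arrays ran from −0.153 to 0.218, the highest for estradiol replicate 2 with vehicle replicate 1. Estradiol replicate 1 with vehicle replicate 2 gave 0.212, and a batch shared under other numbers was not tested. Leaving out single arrays gave 2 rises and 3 to 4 falls in the set. Over all genes vehicle replicate 2 had the lowest array weight (0.344), and vehicle replicate 1 had 0.584. The SD of the differences between vehicle replicate 2 and the other vehicle arrays was 0.208 to 0.251. Among those other vehicle arrays it was 0.133 to 0.169. Median centring moved the share of rises among calls from 46.3% to 56.2%, and 75th percentile centring moved it to 40.5%. Depth does not apply to arrays, and no detection calls limit the dim genes here.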

Other observations

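Genes next to the changed receptors gave values of their own, named after those values had been seen. FCGR2A and FCER1G lie near each other on chromosome 1, and of 11 measured protein-coding genes from FCER1G to FCGR2B, by their order in RefSeq (GRCh38.p14), 3 rose and 1 fell, where 8.29% of all genes rose and 9.60% fell. The stretch was chosen around FCER1G and FCGR2A, so 2 of the 3 rises were set by that choice. Besides both receptor genes HSPA6 rose, a heat-shock protein of the HSP70 family and the next protein-coding gene after FCGR2A. Its rise was 1.01 ± 0.07 (SE, limma adjusted p = 1.93e-05), with levels of 6.58, 6.53, 6.39 and 6.61 with estradiol and 5.44, 5.39, 5.62 and 5.63 with vehicle. Its other probe set rose by 0.33 ± 0.07. TOMM40L, a mitochondrial import protein gene near FCER1G, fell by 0.30, and SDHC, a respiratory chain subunit between FCER1G and FCGR2A, differed by 0.03 ± 0.04 without a call.

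On chromosome 12 the stretch from C3AR1 to CLEC12A held 21 measured protein-coding genes, of which 2 fell and 0 rose. Of all genes 9.60% fell and 8.29% rose, and C3AR1 was one of the genes that set the stretch. The fall besides C3AR1 was FAM90A1 (−0.29 ± 0.07, limma adjusted p = 0.0202). CLEC4A, CLEC4D and CLEC4E in that stretch differed by −0.11, −0.03 and −0.09.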
